A study of Mus musculus with 29 samples.

Results

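Proteoglycan core proteins were followed by 10 genes: the small leucine-rich members Dcn (decorin), Lum (lumican), Bgn (biglycan), Fmod (fibromodulin), Ogn (osteoglycin), Prelp, Aspn (asporin) and Podn (podocan), and the large matrix members Vcan (versican) and Hspg2 (perlecan). The members were taken by name, as the rows of the count table whose Ensembl identifier maps to these symbols, and all 10 were found among 56953 features, of which 26512 had at least 1 count. The cells were crude stromal vascular fraction (SVF), the non-adipocyte cells freed from fat by enzyme digestion, of inguinal (iWAT) and perigonadal (pgWAT) white adipose tissue of adult male and female C57BL6/J mice. All 29 cultures were kept for 4 days in PM1 medium with 1 nM basic fibroblast growth factor before their RNA was made into Smart-seq3 libraries, so no uncultured cells and no untreated control stand beside them. From iWAT there were 10 libraries labelled male and 9 labelled female, and from pgWAT 4 and 6. The questions were whether the depots differ and whether the sexes do.

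The study describes the libraries as technical wells of a few separate experiments per depot, without saying which well belongs to which, so the p-values given here reflect how wells vary, which may be technical, rather than how animals vary. In bulk cultures, fewer cells of a type and less RNA per cell cannot be told apart.

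A proteoglycan is a core protein that carries sulfated sugar chains. The small leucine-rich proteins share a curved repeat domain with which most of them bind fibrillar collagen and guide the width and spacing of its fibrils, and decorin, biglycan and asporin also bind growth factors of the transforming growth factor β family. Versican joins hyaluronan in loose, expanding matrix, and perlecan is a heparan sulfate proteoglycan of basement membranes that holds fibroblast growth factors. In adipose tissue these proteins are made mainly by fibroblast-like stromal cells, and decorin and lumican are widely used as markers of them.

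Total counts per library ran from 315316 to 1102234, and 3 counts, the limit that a count of 0 allows, equalled 2.58 to 9.77 CPM (counts scaled to library size) in single libraries. Reads without molecular identifiers were counted too, so such limits cover counting error only. Sex-linked transcripts matched the label in all 19 iWAT libraries and failed to match it in 5 of 10 pgWAT libraries. Under the label pgWAT male, replicates 2 and 4 held 24 and 60 counts of Xist, the RNA of the inactive X chromosome, with 1 and 0 counts over 4 Y-linked genes. Those labelled pgWAT female replicates 2 and 3 held no Xist count and 23 and 26 Y-linked counts, and pgWAT female replicate 1 held 7 and 10. Labels were kept as given, and the fits were repeated without these 5 libraries.

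The members together took 0.497% to 0.934% of all counts in a library. Set per kilobase of the longest coding transcript, the scale used here to compare genes, Bgn was highest in iWAT at 1927 ± 357 CPM per kb (SD, n = 19), before Dcn at 535 ± 146 and Lum at 144 ± 88.9. Hspg2 at 26.1 ± 9.51 and Ogn at 20.3 ± 8.81 followed and did not differ beyond their spread. Aspn, Vcan and Prelp lay at 9.58 ± 4.61, 8.42 ± 1.89 and 4.33 ± 2.89 CPM per kb, again closer than their spread. Fmod and Podn were the lowest, at 0.834 ± 0.742 and 0.472 ± 0.482 CPM per kb, levels of a few reads.

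**Figure D1:**
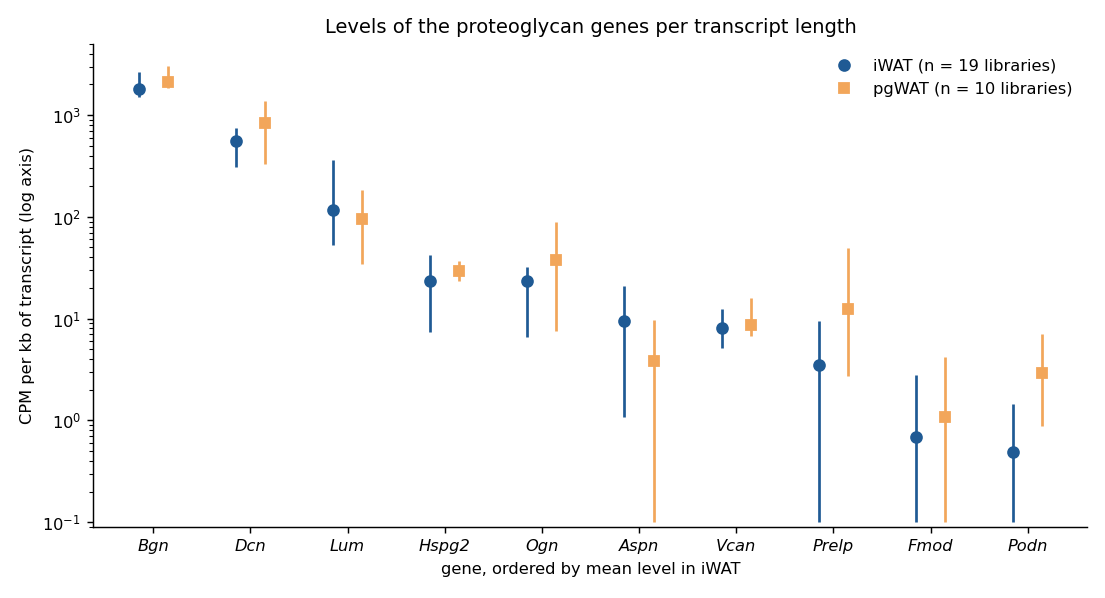
Level of each gene in CPM per kb of its longest coding transcript on a log axis; symbols are medians, lines run from the lowest to the highest library of each depot, and a line reaching the lower edge of the plot, at 0.1, stands for a library at 0. Bgn, Dcn and Lum lead in both depots, while Prelp and Podn stand higher and Aspn lower in pgWAT.

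In pgWAT the first 3 genes kept that order, with Bgn at 2233 ± 372, Dcn at 834 ± 313 and Lum at 93.1 ± 52.9 CPM per kb (SD, n = 10). Ogn came next at 40.7 ± 25.7, then Hspg2 at 29.7 ± 4.68 and Prelp at 17.7 ± 15.2. Of the member reads, 71.6% ± 4.605 fell on Bgn in iWAT and 69.1% ± 7.11 in pgWAT, against 14.3% ± 2.07 and 18.6% ± 6.22 for Dcn. Both carry chondroitin or dermatan sulfate chains. Vcan stood above Aspn in iWAT when the median transcript length was used in place of the longest, since its isoforms differ widely in length.

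The first comparison asked how pgWAT cultures differ from iWAT cultures, with the sexes weighted equally. The filter on low counts kept 8 of the 10 members and dropped Fmod and Podn. Dcn, Ogn and Prelp were higher in pgWAT and Aspn was lower, so that 4 of 8 tested members were called, 3 higher and 1 lower, at an adjusted p below 0.05. Among all 8853 genes tested, 38.1% were called, 20.2% higher and 17.9% lower, which is the share against which the members' count has to be read. The median log2 fold change of the 8 members was 0.19, against 0.01 over all genes.

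Prelp, whose protein has a basic, heparin-binding end and anchors basement membranes to the collagen below, had the largest log2 fold change of the called members over all libraries. Its level was 122, 34.6, 68.0 and 22.5 CPM in pgWAT male replicates 1 to 4. In pgWAT female libraries it ran from 9.77 through a median of 40.6 to 178 CPM. The 19 iWAT libraries spanned 0 to 34.6 CPM with a median of 12.7. Of the 10 pgWAT libraries 6 lay above every iWAT library and 9 above the iWAT median, and the groups overlapped. The log2 fold change was 2.18 ± 0.32 (SE, adjusted p = 1.4e-06), and it was 1.64 (adjusted p = 1.9e-05) without the 5 libraries that do not match their labels. Exons of Prelp overlap an antisense gene, and the counting is not stated to have used strand.

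Ogn, a small secreted member that carries keratan sulfate in some tissues, was at 34.7, 187, 19.4 and 228 CPM in pgWAT male replicates 1 to 4. The pgWAT female libraries held 50.1 to 128 CPM, with a median of 96.4. In iWAT Ogn ran from 16.8 through a median of 60.2 to 82.9 CPM. The highest values, in pgWAT male replicates 2 and 4, belong to libraries with Xist counts, and the lowest pgWAT values, in replicates 1 and 3, to those with Y-linked counts. The log2 fold change of 1.03 ± 0.27 (SE, adjusted p = 0.0029) fell to 0.00097 (adjusted p = 1.00) when the 5 libraries were left out. That value averages the sexes with equal weight, and the sexes went opposite ways. The matching pgWAT males, replicates 1 and 3, lay below the iWAT male median of 61.6 CPM. The matching pgWAT females, replicates 4, 5 and 6, held 85.9, 107 and 127 CPM, above the iWAT female median of 29.5.

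Dcn, which sheathes collagen fibrils and holds growth factors, was at 825, 2442, 580.4 and 2011 CPM in pgWAT male replicates 1 to 4, and at 1058 to 1761 CPM in the pgWAT female libraries, with a median of 1476. The iWAT libraries spanned 546 to 1328 CPM around a median of 972. Of 10 pgWAT libraries 7 exceeded every iWAT library, the exceptions being pgWAT male replicates 1 and 3 and pgWAT female replicate 3. The log2 fold change was 0.64 ± 0.17 (SE, adjusted p = 0.0031) over all libraries and 0.15 (adjusted p = 0.56) without the 5.

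Aspn, a relative of decorin that binds collagen and restrains transforming growth factor β, went the other way. The pgWAT male replicates 1 to 4 held 22.6, 10.4, 8.33 and 9.66 CPM. In the pgWAT female libraries Aspn ran from 0 through 3.66 to 12.5 CPM, with 2 libraries at 0. In iWAT its range was 2.54 to 48.9 CPM with a median of 21.8. These are low levels, 46 counts over the 10 pgWAT libraries and 286 over the 19 iWAT libraries, and several single libraries lay under the limit that 3 counts set. The log2 fold change was -1.59 ± 0.34 (SE, adjusted p = 0.00033), and -2.33 (adjusted p = 0.00067) without the 5 libraries.

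The promoters of the neighbours Ogn and Aspn and of Prelp are shown as the 250 bases before the RefSeq start (assembly GRCm38.p6, read along the gene's strand, 5′ to 3′). Over all libraries Ogn was called higher and Aspn lower in pgWAT, and Prelp was the called member with the largest log2 fold change. Without the 5 libraries that do not match their labels Ogn was not called. In labelled males neither Ogn nor Aspn was called by depot. The deposited counts were made on GRCm39. Capitals mark the letters TATAAA on either strand, where matches may overlap.
Ogn, chr13:49607765-49608014, plus strand: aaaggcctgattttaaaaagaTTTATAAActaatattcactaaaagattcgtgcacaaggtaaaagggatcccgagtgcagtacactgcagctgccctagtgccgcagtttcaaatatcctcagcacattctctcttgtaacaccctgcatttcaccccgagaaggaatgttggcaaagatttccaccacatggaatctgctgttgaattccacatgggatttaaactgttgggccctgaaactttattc
Aspn, chr13:49544193-49544442, plus strand: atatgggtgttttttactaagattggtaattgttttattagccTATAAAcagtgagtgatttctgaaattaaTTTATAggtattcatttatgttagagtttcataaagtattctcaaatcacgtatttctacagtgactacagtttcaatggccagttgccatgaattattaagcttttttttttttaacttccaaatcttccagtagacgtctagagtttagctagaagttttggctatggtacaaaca
Prelp, chr1:133921402-133921651, minus strand: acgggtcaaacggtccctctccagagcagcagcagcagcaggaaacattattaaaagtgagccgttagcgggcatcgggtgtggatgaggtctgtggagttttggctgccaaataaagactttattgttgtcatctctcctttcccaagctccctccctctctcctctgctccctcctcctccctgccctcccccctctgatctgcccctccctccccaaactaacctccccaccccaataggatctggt

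The windows of Ogn and Aspn were 42% and 30% G and C, below the median of 52.4% over the 32851 windows of the RefSeq table, and that of Prelp was 55.6%. TATAAA was found in 12.4% of all windows, among them those of Ogn, 229 and 227 bases before the start in overlapping matches, and of Aspn, 207 and 178 bases before it. The GC box GGGCGG, held by 32.7% of all windows, the AP-1 letters TGANTCA, held by 6.75%, and the letters CAGACA, held by 17.1%, were in none of the 3 on either strand. The Hspg2 window held 5 copies of GGGCGG and that of Bgn 3. Of the members, 8 had an entry in this table. The bases after the RefSeq start lay near the beginning of a Gencode transcript for Aspn, Prelp and Hspg2. For Ogn and Bgn no Gencode transcript held them there, so these windows may not end at a transcript start. These matches describe letters and say nothing of binding.

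**Figure D2:**
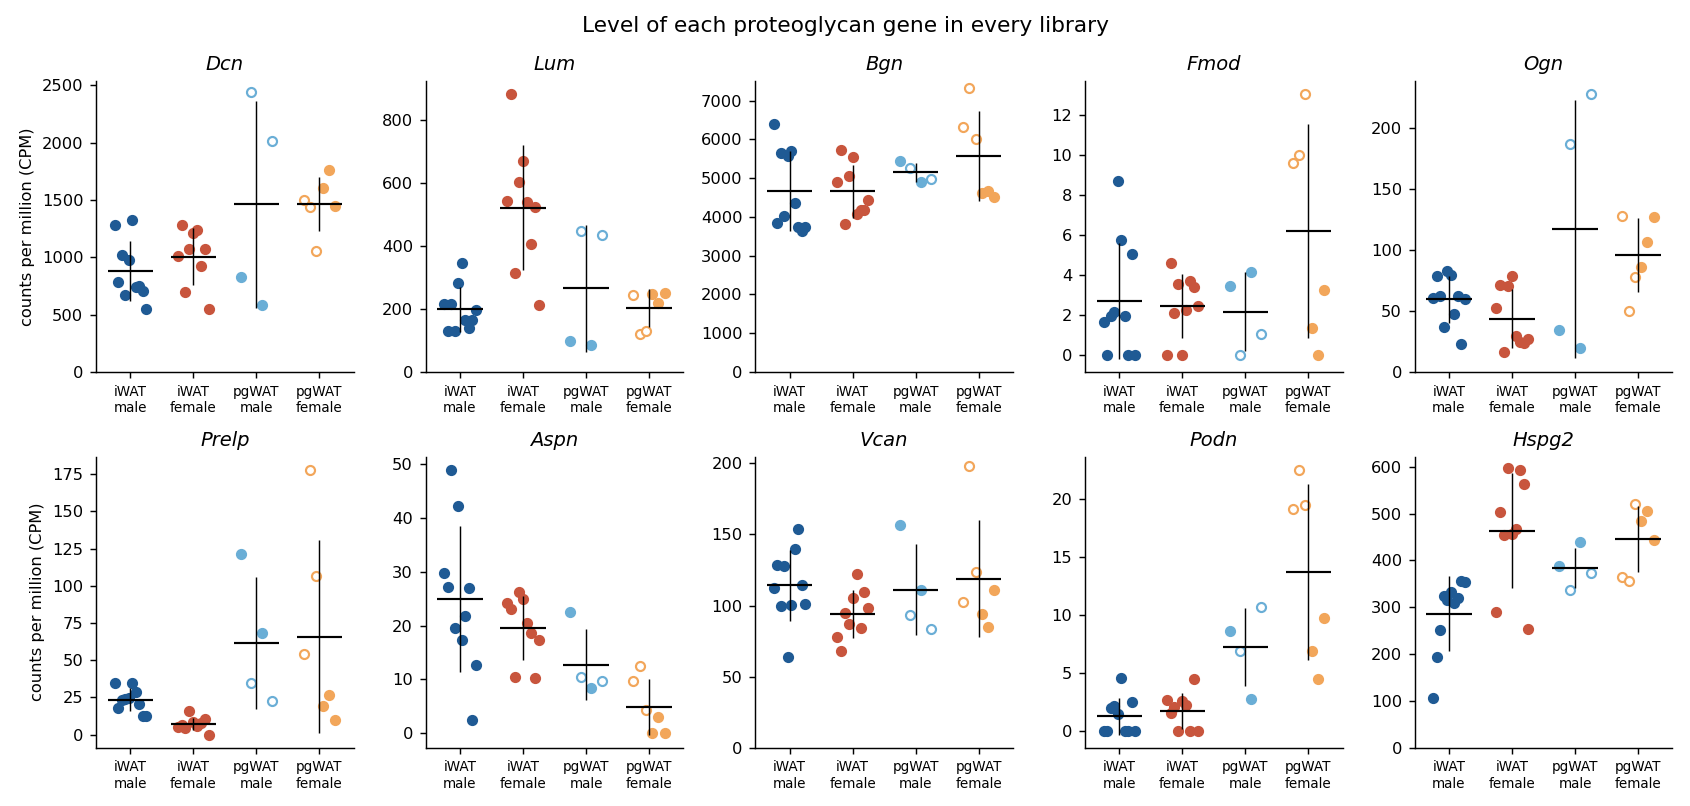
CPM of each member in every library by depot and labelled sex, each panel on its own linear axis; points are libraries, open points the 5 pgWAT libraries whose sex-linked counts do not match the label, horizontal lines means and vertical lines SDs. In pgWAT males the open points for Dcn, Lum and Ogn (replicates 2 and 4) lie far above the filled ones, and for Prelp below them.

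The remaining tested members were not called by depot. Bgn, the most abundant member, ran from 4513 to 7321 CPM in pgWAT and from 3641 to 6385 in iWAT. Every pgWAT library lay above the iWAT median of 4351, and the log2 fold change was 0.20 ± 0.10 (SE, adjusted p = 0.12). With the well column in the sample names as a factor it was 0.30 (adjusted p = 0.036), and without the 5 libraries 0.05 (adjusted p = 0.82). Vcan ran from 83.7 to 198 CPM in pgWAT and from 64.0 to 154 in iWAT, and Hspg2 from 336 to 519 and from 105 to 597. Vcan had a log2 fold change of 0.14 ± 0.13 and Hspg2 of 0.18 ± 0.14, with adjusted p of 0.45 and 0.33. Without the 5 libraries they were at 0.10 and 0.27 (adjusted p = 0.67 and 0.30). Lum, a keratan sulfate carrier needed for regular fibril spacing, had -0.48 ± 0.23 (SE, adjusted p = 0.10). Without the 5 libraries the Lum value was -1.15 (adjusted p = 0.00069), and it was -0.66 or -0.67 without pgWAT male replicate 2 or 4 alone (adjusted p = 0.034 in both).

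Podn and Fmod, both too low for the main test, are given as counts. Podn, a less common member that binds collagen, was counted 56 times over the 10 pgWAT libraries and 21 times over the 19 iWAT libraries. In single libraries that was 2 to 10 counts in pgWAT, with none at 0, and 0 to 4 in iWAT, where 8 libraries were at 0. All 10 pgWAT libraries were above the iWAT median of 1.54 CPM, and 8 above the iWAT maximum of 4.61. The 5 matching pgWAT libraries held 18 of the Podn counts, at 2.78 to 9.77 CPM. When no filter was applied, Podn had a log2 fold change of 2.46 (adjusted p = 1.6e-05), in a fit where the median over all genes shifted to -0.12. Fmod, a partner of lumican in fibril assembly, had 21 counts in pgWAT and 34 in iWAT, and at most 6 in any library, with 7 counts in the 5 matching pgWAT libraries. Its log2 fold change without the filter was 0.36 (adjusted p = 0.97), a difference not detectable at this depth.

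Within each labelled sex the picture was uneven. In males 2 of 8 members were called, Dcn at 0.73 ± 0.25 (adjusted p = 0.035) and Prelp at 1.30 ± 0.44 (adjusted p = 0.032) on the log2 scale, against 20.3% of all genes. Leaving out pgWAT male replicate 2 or 4 lowered the Dcn value to 0.37 or 0.52, with adjusted p of 0.38 and 0.23, and leaving out replicate 1 lowered that of Prelp to 0.75 (adjusted p = 0.28). Without all mismatching libraries, where 872 of 9516 genes were called, pgWAT males are replicates 1 and 3 alone, and Dcn was then at -0.36 (adjusted p = 0.48), Lum at -1.17 (adjusted p = 0.049) and Prelp at 1.91 (adjusted p = 7.9e-05).

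In females 4 of 8 members were called, against 26.8% of all genes. Lum was lower in pgWAT by -1.37 ± 0.32 and Aspn by -2.15 ± 0.51 on the log2 scale, with adjusted p of 0.0013 and 0.0018. Ogn was higher by 1.07 ± 0.38 (adjusted p = 0.032) and Prelp by 3.06 ± 0.46 (adjusted p = 5.19e-06). The Ogn call was lost when any 1 of 7 libraries was left out, with adjusted p up to 0.070: pgWAT female replicates 1, 5 and 6 and iWAT female replicates 3, 6, 7 and 8. With the well column as a factor Lum was at -0.87 (adjusted p = 0.077), Prelp at 1.79 (adjusted p = 0.0086), Ogn at 2.16 (adjusted p = 0.00031), Aspn at -2.18 (adjusted p = 0.012) and Dcn at 0.80 (adjusted p = 0.042). The 3 matching libraries, in a fit that called 1741 of 9516 genes, gave the same directions: Lum -1.14 (adjusted p = 0.0074), Aspn -3.88 (adjusted p = 0.00062), Ogn 1.202 (adjusted p = 0.0089) and Prelp 1.37 (adjusted p = 0.016). Dcn, at 0.54 ± 0.23 with all libraries (adjusted p = 0.075), was at 0.67 (adjusted p = 0.030) among them.

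**Figure D3:**
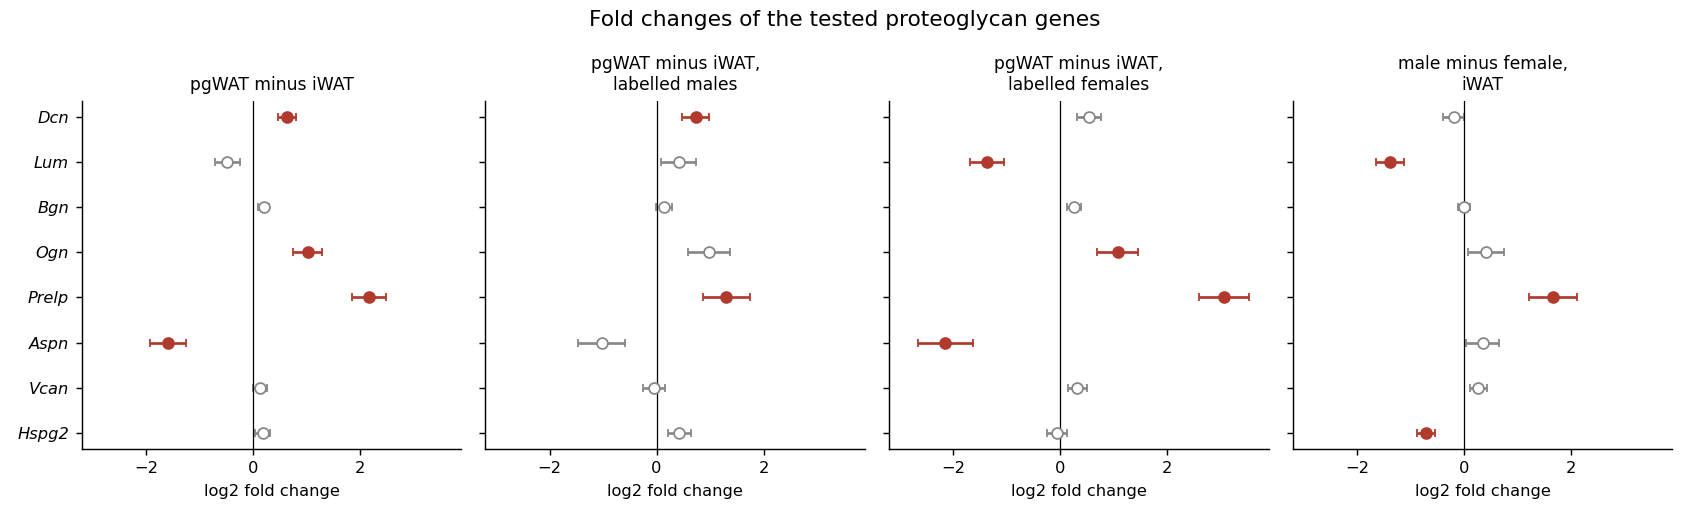
Log2 fold change of the 8 tested members with its SE in 4 contrasts; filled red points passed an adjusted p of 0.05 and open grey points did not. Prelp lies to the right in every panel, Aspn to the left in the depot panels, and Lum is called in labelled females by depot and in iWAT by sex.

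The second comparison set male against female libraries within iWAT, where all labels matched. Lum and Hspg2 were lower and Prelp was higher in males, so 3 of 8 tested members were called, 1 higher and 2 lower. Of all genes 3.22% were called in this contrast, 1.08% higher and 2.13% lower. Lum ran from 129.7 through a median of 181 to 347 CPM in males, and from 212 through 541 to 883 CPM in females. All 10 male libraries lay below the female median and 6 below the lowest female library. The log2 fold change, male minus female, was -1.38 ± 0.26 (SE, adjusted p = 0.0020).

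Hspg2 was at 105 to 355 CPM in iWAT males, with a median of 318, and at 253 to 597 CPM in iWAT females, with a median of 466.1. Again the groups overlapped, with all 10 male libraries below the female median. Its log2 fold change was -0.70 ± 0.17 (SE, adjusted p = 0.013). With the well column as a factor it was -0.59 (adjusted p = 0.064).

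Prelp had 12.7 to 34.6 CPM in iWAT males, with a median of 23.6, and 0 to 15.5 CPM in iWAT females, with a median of 6.17. Of the 10 male libraries 8 exceeded every female library. The female values rest on 53 counts over 9 libraries, the male values on 147 over 10. The log2 fold change of 1.67 ± 0.45 (SE, adjusted p = 0.033) was close to the threshold, and single libraries decided its side of it: the value stayed between 1.57 and 1.88 when any 1 library was left out, while the adjusted p ran from 0.013 to 0.064. The adjusted p rose above 0.05, so that the call was lost, without iWAT male replicate 1, 5 or 6 or iWAT female replicate 3, 6 or 7. Limma-voom gave 1.74 (adjusted p = 0.11).

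The other members did not pass the test between the sexes of iWAT. Bgn had nearly equal means of 4664 ± 1039 CPM in males and 4660.4 ± 684 in females, with a log2 fold change of 0.0014 ± 0.12. Dcn was at -0.19 ± 0.20, Ogn at 0.42 ± 0.34, Aspn at 0.36 ± 0.31 and Vcan at 0.27 ± 0.16, with adjusted p from 0.42 to 1.00. Of the iWAT females, replicate 9 held the lowest Dcn, Lum and Hspg2 and no Prelp count. Its summed epithelial markers stood at 1351 CPM, against 29.4 to 254 in the other female libraries. Without it the values were -1.48 for Lum (adjusted p = 0.00071), -0.78 for Hspg2 (adjusted p = 0.0050) and 1.57 for Prelp (adjusted p = 0.0496).

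Between the labelled sexes of pgWAT no member of 8 was called by edgeR, 1 had an unadjusted p below 0.05, and 0.0113% of all genes were called. Of these 10 libraries 5 carry sex-linked counts that do not match the label. With the 2 matching males and 3 matching females alone, 536 of 9516 genes were called. Among them were 5 members, male minus female: Dcn -1.22 (adjusted p = 0.017), Lum -1.42 (adjusted p = 0.045), Ogn -1.998 (adjusted p = 0.016), Prelp 2.20 (adjusted p = 0.00094) and Aspn 3.45 (adjusted p = 0.032). Aspn had 19 counts in those 2 male libraries and 2 in the 3 female ones, with 2 of them at 0.

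The direct test of whether the depot difference depends on labelled sex called no member by edgeR, with 2 members under an unadjusted p of 0.05 and 0.181% of all genes called. Lum had the largest value of those 2, 1.78 ± 0.45 on the log2 scale (adjusted p = 0.11), and Prelp -1.76 ± 0.66 (adjusted p = 0.41). DESeq2 called Lum alone in this test. Without the mismatching libraries, where 244 of 9516 genes were called, Lum was at -0.03 (adjusted p = 1.00) and Ogn was called at -2.40 (adjusted p = 0.014).

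Several of these genes lie side by side in the genome. Dcn and Lum are adjacent coding genes on mouse chromosome 10, Fmod and Prelp on chromosome 1, and Ogn and Aspn lie on chromosome 13 with Omd, another leucine-rich proteoglycan, between them. The ratio of 2 genes within a library does not depend on its scaling, so the 3 pairs were compared as log2 ratios of counts with 0.5 added, in 6 tests. Where a count is near 0, as for Fmod and Aspn in some libraries, the added 0.5 makes the ratio depend on depth. The Dcn to Lum ratio was 1.00 ± 0.25 (SD, n = 9) in iWAT females, from 0.53 to 1.36, and 2.16 ± 0.35 (SD, n = 10) in iWAT males, from 1.48 to 2.57. The male and female ranges did not touch.

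The difference of 1.16 ± 0.14 (SE) had an exact two-sided permutation p of 2.17e-05, the smallest this design can give (Benjamini-Hochberg adjusted over the 6 tests, 0.00013). In pgWAT the ratio was 2.79 ± 0.39 (SD, n = 10), higher than in iWAT by 1.18 ± 0.20 (SE, permutation p = 6e-05, adjusted 0.00018). The depots overlapped, since the pgWAT minimum of 2.21 lay below the iWAT maximum of 2.57. The pgWAT males had 3.07, 2.44, 2.77 and 2.21, and the pgWAT females 2.52 to 3.56. In the 5 matching pgWAT libraries the mean was 2.81, and the Dcn to Lum log2 ratio, pgWAT minus iWAT, was 1.196 with them alone (exact permutation p = 0.00014).

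**Figure D4:**
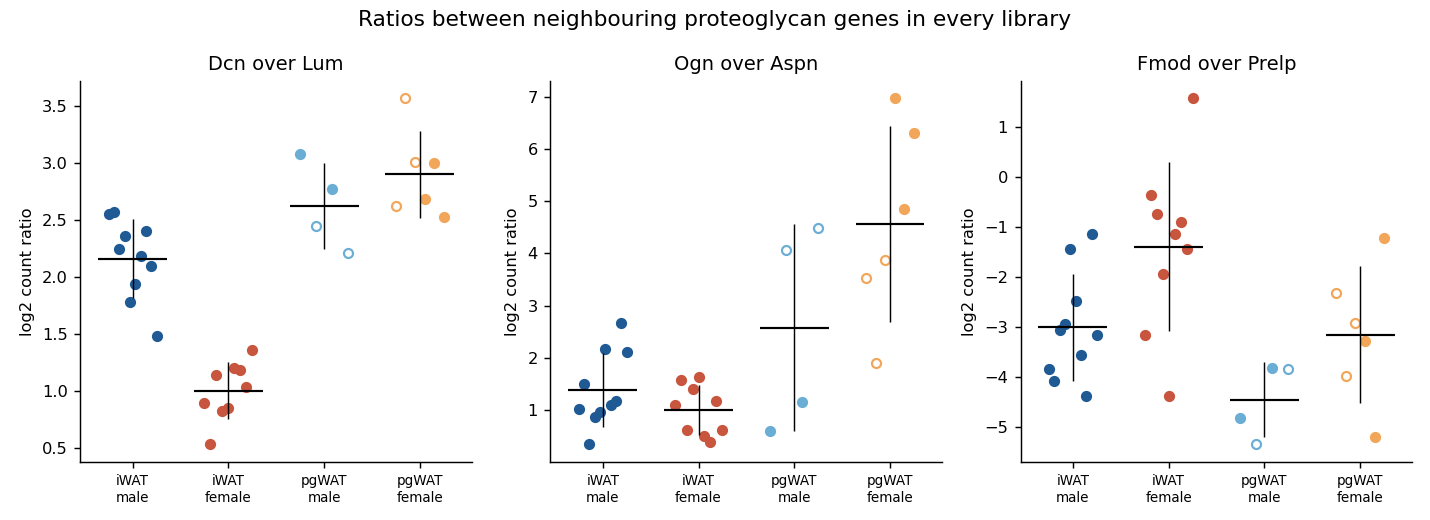
Log2 ratio of counts of neighbouring genes in every library by depot and labelled sex; open points are the 5 pgWAT libraries whose sex-linked counts do not match the label, horizontal lines means and vertical lines SDs. For Dcn over Lum, iWAT females lie between 0.53 and 1.36, below every other library.

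The Ogn to Aspn ratio was 1.21 ± 0.63 (SD, n = 19) in iWAT and 3.77 ± 2.08 (SD, n = 10) in pgWAT, a difference of 2.56 ± 0.67 (SE, permutation p = 0.00024, adjusted 0.00048). With the 5 matching pgWAT libraries alone and the sexes pooled, the Ogn to Aspn log2 ratio, pgWAT minus iWAT, was 2.77 (exact permutation p = 0.0073). The matching males, replicates 1 and 3, had 0.60 and 1.16, inside the iWAT male range of 0.35 to 2.66 and below its mean of 1.39. The matching females, replicates 4, 5 and 6, had 6.97, 4.86 and 6.30, above every iWAT library. Aspn had no count in female replicates 4 and 6. Over all pgWAT libraries 0.60 was the lowest ratio and 6.97 the highest. Between the sexes of iWAT the difference was 0.39 ± 0.28 (SE, exact permutation p = 0.18). For Fmod to Prelp, where Fmod has 0 to 6 counts per library, the ratio was lower in pgWAT by -1.44 ± 0.55 (SE, permutation p = 0.019, adjusted 0.028), and with the 5 matching pgWAT libraries alone the Fmod to Prelp log2 ratio, pgWAT minus iWAT, was -1.43 (exact permutation p = 0.077). In iWAT it was lower in males by -1.62 ± 0.66 (SE, exact permutation p = 0.023, adjusted 0.028).

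Genes that build, cut or bind proteoglycans were taken from 11 lists with 124 entries, chosen for their function. The low-count filter kept 70 of them. By depot 44 of the 70 were called, 62.9%, with 33 higher and 11 lower in pgWAT, beside 38.1% of all genes. Without the 5 mismatching libraries 34 of 77 were called, 44.2%, with 22 higher and 12 lower, beside 23.7% of all genes.

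**Figure D5:**
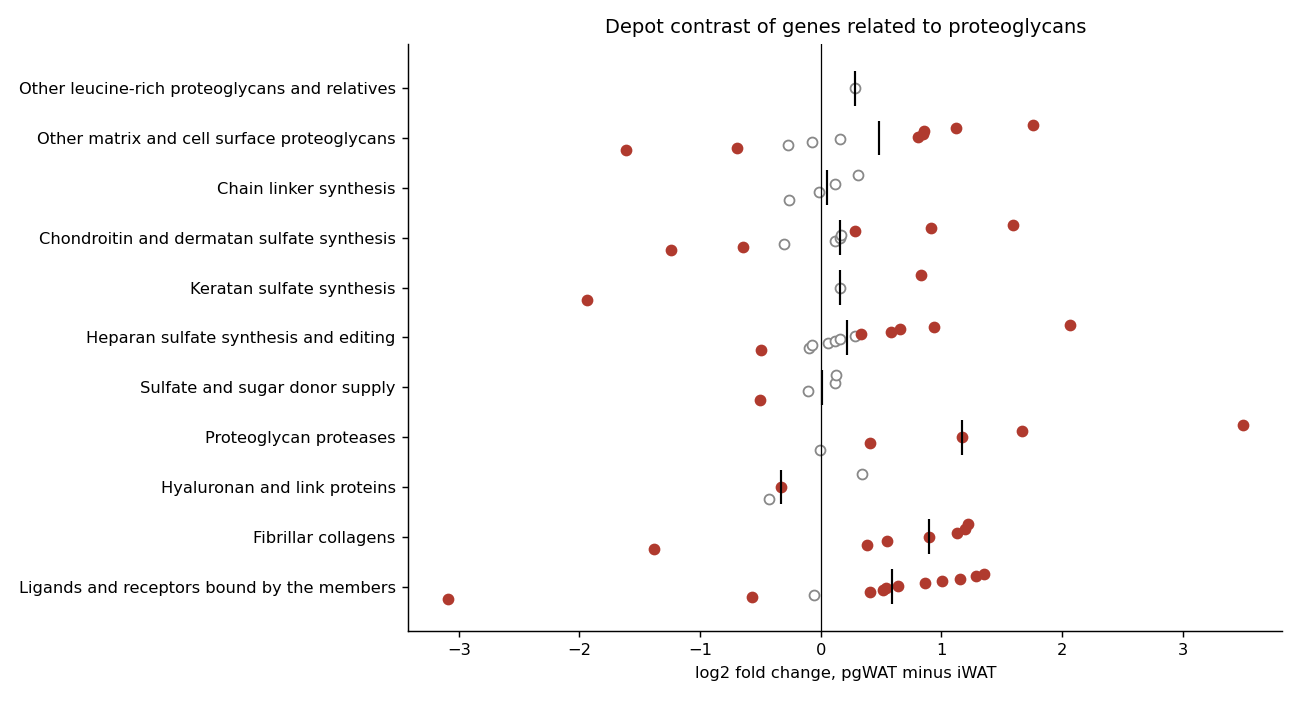
Log2 fold change, pgWAT minus iWAT, of each tested gene in 11 lists related to proteoglycans; filled red points passed an adjusted p of 0.05, open grey points did not, and vertical bars are list medians. Adamts5 at 3.50 and Tnc at -3.09 are the outermost points.

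The proteases that cut proteoglycans showed the highest list median, 1.17, with 4 of 5 tested genes higher and none lower. Adamts5, the main versican- and aggrecan-cleaving enzyme of many tissues, rose from 30.0 ± 14.0 CPM in iWAT (SD, n = 19) to 356 ± 155 in pgWAT (SD, n = 10), a log2 fold change of 3.50 ± 0.21 (SE, adjusted p = 7.2e-15). Adamts15 was higher by 1.67 ± 0.20 and Adamts1 by 1.17 ± 0.16. All 4 calls were also made without the 5 libraries, with Adamts5 at 3.24.

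Of 10 tested matrix and cell surface proteoglycans 5 were higher and 2 lower. The syndecans, transmembrane heparan sulfate carriers, were higher at Sdc4 (1.76 ± 0.14), Sdc2 (1.12 ± 0.12) and Sdc3 (0.86 ± 0.19). Sdc1, also a syndecan, was not called, at -0.07 (adjusted p = 0.73). Esm1, an endothelial dermatan sulfate proteoglycan, was lower by -1.62 ± 0.38 and the hyaluronan receptor Cd44 by -0.70 ± 0.12. Among the matching libraries 4 of 13 were higher and 3 lower. Sdc4, Sdc2, Sdc3, Cd44 and Esm1 stayed called, from Sdc4 at 1.504 to Esm1 at -1.77. Among the 9 other leucine-rich genes only Tsku was tested, and it had a log2 fold change of 0.28 (adjusted p = 0.28).

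Enzymes of the sugar chains moved both ways. In heparan sulfate synthesis and editing 5 of 12 were higher and 1 lower, led by the 6-O-endosulfatase Sulf1, at 66.3 ± 27.4 CPM in iWAT and 277 ± 66.5 in pgWAT (log2 fold change 2.06 ± 0.14, adjusted p = 8.2e-14). Hpse, which cleaves heparan sulfate, was at 0.94 ± 0.29 and the polymerase subunit Ext1 at 0.66 ± 0.12, while Hs6st1 was lower by -0.49 ± 0.15. Hpse was low, at means of 8.45 CPM in iWAT and 16.8 in pgWAT. With the matching libraries alone 3 of 12 were higher and none lower: Sulf1 (1.88), Ext1 (0.77) and Ext2 (0.58) were called, while Hpse was at 0.66 (adjusted p = 0.19) and Hs6st1 at -0.28 (adjusted p = 0.31). For chondroitin and dermatan sulfate, 3 of 9 were higher, Chst11 (1.59 ± 0.29), Dse (0.91 ± 0.17) and Chst12 (0.28 ± 0.09), and 2 lower, Chsy1 (-1.24 ± 0.21) and Chst14 (-0.64 ± 0.25). Without the 5 libraries 2 were higher and 1 lower, with Chst12 at 0.15 (adjusted p = 0.41) and Chst14 at -0.74 (adjusted p = 0.11) no longer called. For keratan sulfate B4galt1 was higher (0.84 ± 0.12), Chst2 lower (-1.94 ± 0.29) and the other tested gene was not called, and without the 5 libraries both calls were made (0.48 and -2.04). Chst2 averaged 26.0 CPM in iWAT and 6.48 in pgWAT. No gene of 4 in the chain linker list was called, 1 of 4 in the supply of sulfate and sugar donors was lower (Papss1, -0.51 ± 0.13), and of 3 tested hyaluronan genes Hyal2 was lower (-0.33 ± 0.13). Without the 5 libraries Papss1 was at -0.75, no gene of 5 tested in the chain linker list was called, and 3 of 6 tested hyaluronan genes were lower: the synthases Has1 (-1.74) and Has2 (-2.07), not tested with all libraries, and Hyal2 (-0.51).

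Of the 7 fibrillar collagens, the scaffold these core proteins decorate, 6 were higher and Col5a3 was lower (-1.38 ± 0.13). Col1a1 was at 1617 ± 794 CPM in iWAT and 3503 ± 1647 in pgWAT, a log2 fold change of 1.22 ± 0.18, Col11a1 had 1.196 ± 0.44 and Col3a1 1.13 ± 0.19. Col11a1 was low, at 6.85 ± 6.31 CPM in iWAT and 15.8 ± 14.6 in pgWAT (SD). Without the mismatching libraries only Col5a2 of the 6 was called higher, at 0.66 (adjusted p = 0.00030), and Col1a1 and Col3a1 were at 0.43 and 0.26 (adjusted p = 0.0503 and 0.27). Col11a1 turned to -0.38 (adjusted p = 0.72).

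Ligands, receptors and matrix partners bound by the members gave 9 higher and 2 lower of 12. Fibulin-1 (Fbln1, 1.35 ± 0.17), nidogen-2 (Nid2, 1.29 ± 0.25) and the receptor gene Kdr (1.16 ± 0.29) led the higher ones. Kdr was low, at means of 7.43 CPM in iWAT and 17.1 in pgWAT. Tnc, tenascin-C, a matrix glycoprotein of remodelling tissue that binds versican-type proteoglycans, fell from 999.5 ± 485 CPM in iWAT (SD, n = 19) to 112 ± 51.2 in pgWAT (SD, n = 10), a log2 fold change of -3.09 ± 0.20 (adjusted p = 2.7e-14). Tgfb3 was lower by -0.57 ± 0.12. With the matching libraries alone 7 of 12 were higher and 2 lower, with Fbln1 at 1.24, Nid2 at 0.64 (adjusted p = 0.034), Kdr at 0.84 (adjusted p = 0.14), Tnc at -3.95 and Tgfb3 at -0.59.

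Between the sexes of iWAT 7 of the 70 related genes were called, all lower in males, beside 3.22% of all genes called and 2.13% lower. They were Col1a1 (-1.23 ± 0.22), Esm1 (-1.24 ± 0.36), Tnc (-1.1955 ± 0.19), Sulf1 (-0.81 ± 0.18), Sdc1 (-0.58 ± 0.16), Bmp1 (-0.52 ± 0.12), a procollagen-cutting protease that also processes biglycan and decorin precursors, and Fbln2 (-0.41 ± 0.10). Col1a1 stood at 988 ± 282 CPM in males (SD, n = 10) and 2316 ± 533 in females (SD, n = 9).

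Markers of other cells moved with the depot and with sex, and their part in these results was not tested. All 4 fibroblast markers other than the members were higher in pgWAT, with sums of 5635 to 10329 CPM in iWAT and 10130 to 21188 in pgWAT, and without the 5 libraries 2 of 4 were. Col1a1 and Col3a1 are among these 4 and were already counted with the fibrillar collagens. All 3 tested smooth muscle markers were higher in pgWAT (sums of 584 to 3529 CPM in iWAT, 1340.4 to 3133 in pgWAT), and 2 were lower in iWAT males. Of 4 tested mesothelial markers 3 were higher in pgWAT and Krt19 was lower, with sums of 1.96 to 98.4 CPM against 59.1 to 189.7. In iWAT and pgWAT, Upk3b averaged 0.045 and 40.7 CPM, Upk1b 0.22 and 22.2, and Wt1 0.44 and 22.3. Krt19 averaged 23.6 and 10.2 CPM. Macrophage markers summed to 91.6 to 306 CPM in iWAT and 145 to 905 in pgWAT, the highest being pgWAT male replicates 3 and 1 at 905 and 733. Of 4 tested, Cd68 and Csf1r were higher in pgWAT, and Csf1r in iWAT males.

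Proliferation markers were lower in pgWAT in 7 of 8, with sums of 872 to 1339 CPM in iWAT and 461 to 1022 in pgWAT. Epithelial Krt8 and Krt18 were lower in iWAT males, where the sum of the list was 0 to 6.23 CPM against 29.4 to 1351 in females, and Fgfr4 was at 0 throughout. Of the endothelial markers 1 of 3 tested was higher in pgWAT (sums of 23.8 to 88.4 and 36.005 to 99.3 CPM), and none of 3 without the 5 libraries. Without those libraries the higher counts were 2 of 3 for smooth muscle, 2 of 5 for macrophages and 5 of 6 for mesothelium, and 6 of 8 proliferation markers were lower. Adipocyte, pericyte and lymphatic lists had no gene tested over all libraries and summed to at most 43.0, 32.3 and 17.9 CPM in any library.

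The well column in the sample names, a position on a plate that the labels do not describe further, was not balanced over the groups: column 7 held 11 iWAT and 1 pgWAT library, and pgWAT females stood in columns 8 and 10 only. Within column 8, 3 pgWAT female libraries, all matching their label, faced 3 iWAT female libraries. There Dcn was higher by 0.57, Ogn by 1.98 and Lum lower by -1.04 on the log2 scale, with adjusted p of 0.0029, 2.9e-06 and 3.5e-05, while Prelp and Aspn were not tested. Within column 9 the 2 pgWAT libraries labelled male that held Xist counts faced 3 iWAT males, and Prelp differed by 0.15 (adjusted p = 0.81). Other members were called within column 9, as counted in the closing section. Within column 7 the iWAT sex values were -1.60 for Lum (adjusted p = 4.2e-05), 1.39 for Prelp (adjusted p = 0.043) and -0.78 for Hspg2 (adjusted p = 0.076).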

How the data were processed

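RNA of 29 wells of cultured SVF was sequenced as Smart-seq3 libraries. The authors trimmed adapters, quantified reads with Salmon (1.9.0 in the submitters' processing notes) against a Gencode transcriptome on GRCm39 and summed transcripts to genes. The deposited table holds these estimated counts per gene, not normalized, with 85.1% of nonzero values whole within 1e-9. They were rounded here. Symbols came from Ensembl identifiers (91.4% matched). No library pair within a labelled group agreed within sampling noise, and pairs across groups were not compared.

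edgeR 4.0.16 in R 4.3.3 fitted 1 mean per group over all libraries (TMM, filterByExpr, quasi-likelihood F test, two-sided, Benjamini-Hochberg over 8853 genes, called below 0.05). SEs come from the F statistic. CPM used totals times TMM factors of 0.948 to 1.05. Ratios were tested by permutation, exact or with 100000 resamples. Both steps were tested on simulated data. All members were named, and up to 3 called genes per list and direction. Members, lists and tests were chosen with earlier results of these data known. Alternatives were other scalings, tools, filters, well columns and left-out libraries. Replicate numbers follow deposition order and pair nothing.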

Additional observations from a re-analysis of the deposited data

Results flagged for a closer look

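Among 40 checks of a member in a group, 2 found a library far from the rest of its group, where chance alone marks about 1 in 20. Aspn stood at 22.58 CPM in pgWAT male replicate 1, against 10.4 CPM in the next library of that group. Vcan stood at 197.9 CPM in pgWAT female replicate 2, against 124 CPM in the next. The second library is among those whose sex-linked counts do not match the label.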

How the results depend on the processing

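No paired analysis was possible because the labels carry no replicate numbers. Other scalings, DESeq2, well column as a factor, limma-voom and ignoring labelled sex left 4 to 5 members called by depot. No filter gave 6 of 10, beside 3685 of 26512 genes, and the fit without the 5 libraries 3, beside 2251 of 9516 genes. The members tested and the share of all genes called change between fits, so such counts are not compared with each other. Leaving out 1 library gave 4 to 6 by depot, 1 to 4 in labelled males, 3 to 6 in labelled females, 2 to 3 between the sexes of iWAT, 0 between those of pgWAT and 0 to 1 in the interaction, where pgWAT male replicates 1 and 3 and iWAT female replicate 9 were the libraries whose removal called Lum. In labelled males, no filter gave 4 called members, beside 1832 of 26512 genes, limma-voom 0 and well column 9 alone 4. Without the 5 mismatching libraries, 5 members were called between the sexes of pgWAT and 1 in the interaction, which had 1 also without the filter and with DESeq2. In the fit without the 5 libraries the signs that turned included Dcn (-0.36) and Lum (-1.17) in labelled males. They also included Lum (-1.42), Ogn (-1.998) and Prelp (2.20) between the sexes of pgWAT. Ogn in labelled males and Lum in the interaction turned as well. Ratio tests lost their threshold within well column 8, where 3 against 3 cannot go below p = 0.1 (Dcn to Lum log2 ratio, pgWAT minus iWAT, 1.59, Ogn to Aspn log2 ratio, pgWAT minus iWAT, 5.34, and Fmod to Prelp log2 ratio, pgWAT minus iWAT, -2.08), and for Fmod to Prelp without the 5 libraries (-1.43) and within column 7 of iWAT (-0.27). With 1 library left out the ratio differences ran from 1.09 to 1.24, 2.21 to 2.91 and -1.71 to -1.23 by depot, and from 1.10 to 1.23, 0.25 to 0.50 and -1.996 to -1.25 by sex. The added fit of the related lists without the 5 libraries, chosen after seeing the data, gave 34 calls in place of 44. The causes were not tested. Depth limits Fmod, Podn and Aspn most.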
